A study of Mus musculus with 3 samples.

Results

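This account describes 10 mouse genes around the ID proteins and the bone morphogenetic protein (BMP) pathway, namely Id1, Id2, Id3, Id4, Smad6, Smad7, Hey1, Bmp4, Bambi and Smad1, out of 20633 genes named on the array. Every non-control probe whose accession is a transcript of one of them was taken, which gave 12 probes. The genes were chosen with the differences between these arrays in view, Id1 because it lay on opposite sides of wildtype in the 2 knockouts, so the ratios are a description and no test was run on them. The samples are cells labelled as mouse embryonic stem cells, grown under standard conditions, of 3 genotypes: wildtype, LIFR KO and gp130 KO. LIFR binds the cytokine LIF, and gp130, the product of Il6st, is the chain it signals with. Total RNA of each genotype was labelled with Cy3 and hybridised to 1 single-colour Agilent array, so there is no spread between cultures, no p-value, and every difference is one between 2 arrays. The parental line, the culture medium, the number of clones behind each knockout and the way the genes were disrupted were not given in the sources used here.

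BMP ligands bind a pair of serine/threonine kinase receptors, which phosphorylate SMAD1, SMAD5 and SMAD9; these join SMAD4, enter the nucleus and switch on target genes. Id1, Id2 and Id3 are among the best known of these targets. ID proteins have a helix-loop-helix domain but no DNA-binding region, so they pair with E proteins and other helix-loop-helix factors and keep them off DNA. In mouse embryonic stem cells, BMP-induced ID proteins are known to act together with LIF and STAT3 in holding back differentiation, and SMAD6 and SMAD7 are induced by the pathway as its feedback inhibitors.

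The labels were checked on the arrays first. The brightest Lifr probe read 34.9 on the wildtype, 29.97 on the LIFR KO and 34.7 on the gp130 KO array, a log2 ratio of -0.39 in its knockout. The Il6st probe read 329, 369 and 299, or -0.11 in its knockout. Neither was clearly lower in the line it should mark, and where the probes lie relative to the disrupted part is not given, so they do not check the labels. Of 20 embryonic stem cell markers, every array detected the same 12 and missed the same 8, Sox2, Zfp42 and Dppa3 among the missed, and Pou5f1 was dim at 31.2, 22.7 and 20.3. Nanog was detected at 316, 217 and 329, Lin28a at 727, 536 and 821 and Sall4 at 312, 286 and 346. Markers of the labelled cell type were thus present only in part, and the arrays do not settle what the cells are. Every array detected 17 of 18 epithelial markers and missed Cldn6. Krt18 read 39533, 50636 and 41452 and Cdh1 9174, 11911 and 9832 on the wildtype, LIFR KO and gp130 KO arrays. Cldn4 was 2.20-fold higher on LIFR KO than on wildtype, at 322 against 130. Of 14 fibroblast and feeder cell markers 5 were detected throughout and 5 nowhere, Lum, Pdgfrb and Twist2 among the latter. After scaling, the summed signals on the wildtype, LIFR KO and gp130 KO arrays were 3783, 3551 and 3693 for the stem cell list, 99107, 100495 and 105023 for the epithelial list and 73679, 78566 and 85866 for the fibroblast list, and their part in the results was not tested. The last sum is nearly all Vim, which read 73043 on wildtype. Within that list Col1a1 was 3.23-fold higher on LIFR KO, at 257 against 70.4, and Dcn 2.08-fold higher on gp130 KO, at 33.6 against 16.5. Arrays had 58.3% to 65.5% of probes well above background. A region of stray signal lay on the LIFR KO array, where local background reached 25884, and none of the 12 probes lay in it, with local backgrounds of 19 to 33. In bulk RNA such as this, fewer cells of a type and less RNA per cell cannot be told apart.

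Of the 10 genes, 8 were well above background on all 3 arrays, Bmp4 on 2 and Bambi on none. Signals are given below as deposited, with the scanner software's own error, and ratios after each array's 75th percentile, at signals of 664, 750 and 652 on the wildtype, LIFR KO and gp130 KO arrays, was set equal. On the LIFR KO array 4 of the 9 genes compared were at least 2-fold higher than on wildtype, Hey1, Id2, Smad6 and Id1, and none was at least 2-fold lower. The share of all 14550 genes compared that were so much higher is 2.87%, and so much lower 1.62%; since the genes were chosen on this contrast, nothing is read from the difference. On the gp130 KO array 1 of 9 was at least 2-fold lower, Id1, and none at least 2-fold higher, where 0.785% and 1.61% of 14902 genes were. With gp130 KO set against LIFR KO, 4 genes were at least 2-fold lower, Id1, Id2, Smad7 and Hey1, where 2.05% of 14763 were, and 2 higher, Id4 and Bmp4, where 1.29% were. The median log2 ratio of the 9 genes was 0.96 on the LIFR KO and -0.06 on the gp130 KO array, beside -0.03 and 0.03 over all genes compared. The comparisons share arrays.

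**Figure D1:**
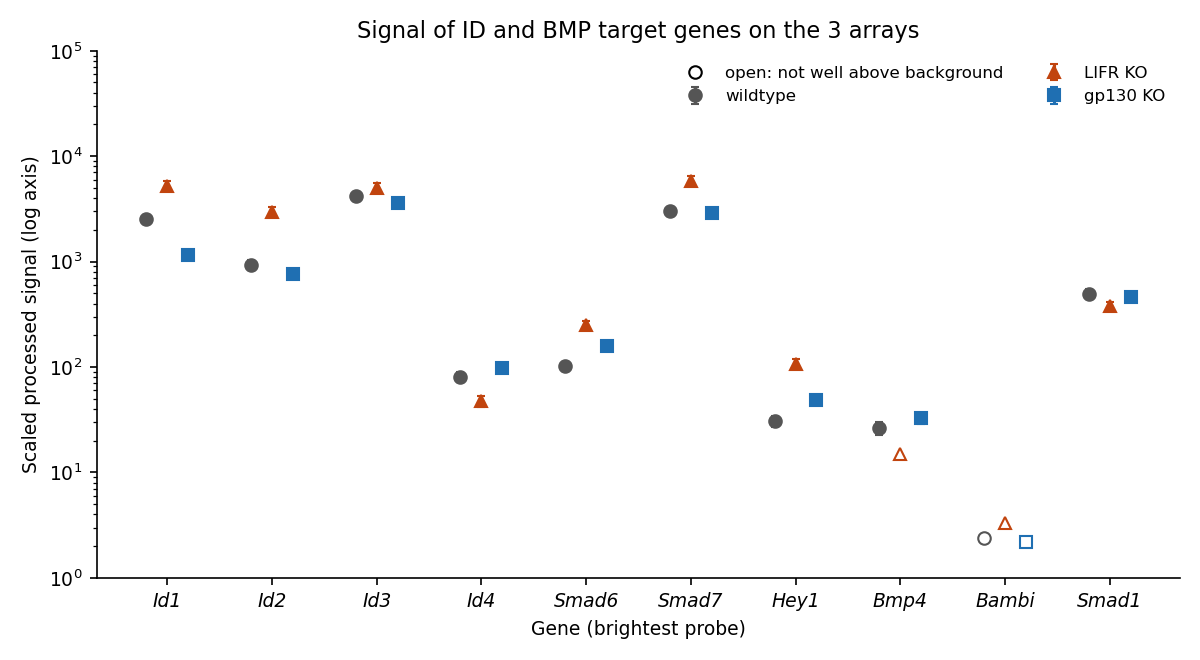
Scaled processed signal (log axis, arbitrary scanner units) of the brightest probe of each gene on the 3 arrays, 1 array per genotype; bars are the scanner software's error and open symbols are probes not well above background. Id1, Id2, Id3, Smad6, Smad7 and Hey1 were highest on the LIFR KO array, and Id4 and Smad1 lowest there. With normexp on all spots the orders of Id3 and Id4 changed. The genes were chosen with this contrast in view, and how many of all genes share these orders was not counted.

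Id1, chosen for this pattern, was the one of the 10 genes past 2-fold on opposite sides of wildtype in the knockouts. Its probe (A_55_P2052563, for transcript NM_010495) had signals of 2524 ± 252 on the wildtype, 5929 ± 593 on the LIFR KO and 1127 ± 113 on the gp130 KO array. The order is LIFR KO, wildtype, gp130 KO, and the gaps between neighbours are several times the scanner error. That error is set by the software at nearly the same share of the signal for every bright probe. It is not a measured spread between spots or cultures. Id1 was 2.08-fold higher on the LIFR KO array, a log2 ratio of 1.06 with a scanner error of 0.20, and 2.20-fold lower on the gp130 KO array, at -1.14 with the same error. Set directly against each other, the gp130 KO array was 4.57-fold lower than the LIFR KO array, a log2 ratio of -2.19. Among 14550 genes in the LIFR KO comparison Id1 ranked 385 from the highest, and among 14902 in the gp130 KO comparison 100 from the lowest. The lower value on the gp130 KO array lay between -1.17 and -1.11 under 11 alternative ways of processing, and the higher one on the LIFR KO array between 0.52 and 1.23, under 2-fold with the 2 settings of the normexp background correction, a model that estimates background from the spot and its surroundings. Some of the 11, such as another detection filter or floor, cannot change a gene with 1 probe well above background on every array.

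Id2, which like Id1 is an immediate BMP target and is also known as an inhibitor of lineage-defining helix-loop-helix factors, was high on the LIFR KO array alone. Its probe (A_52_P240542) had signals of 935 ± 93.5 on the wildtype, 3359 ± 336 on the LIFR KO and 741 ± 74.1 on the gp130 KO array. Wildtype and gp130 KO lay close together, and the LIFR KO array stood 3.18-fold above wildtype, at a log2 ratio of 1.67 with a scanner error of 0.20. The gp130 KO array gave -0.31 over wildtype with an error of 0.20, and -1.98 over the LIFR KO array. The value over wildtype on the LIFR KO array lay from 1.23 to 1.84 under the alternatives. As for Id1, some of them cannot change it.

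Id3 was bright on all 3 arrays and differed little between them. Its probe (A_51_P380178) had signals of 4179 ± 418, 5667 ± 567 and 3490 ± 349 on the wildtype, LIFR KO and gp130 KO arrays. The array order was that of Id1 and Id2, but neighbours in it differed by about the scanner error, with log2 ratios of 0.26 for LIFR KO and -0.23 for gp130 KO over wildtype, each with an error of 0.20. With normexp on all spots the first of these turned to -0.18, and with normexp fitted without the stray signal it was 0.28.

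Id4, the ID gene that is commonly expressed apart from the others and can counteract them, went the other way. Its probe (A_52_P449871) was dimmer, at 81.0 ± 8.50 on the wildtype, 53.4 ± 6.66 on the LIFR KO and 96.2 ± 9.90 on the gp130 KO array. The LIFR KO array was lowest, 1.71-fold below wildtype at a log2 ratio of -0.78 with an error of 0.24, and the gp130 KO array was highest, at 0.28 over wildtype with an error of 0.21 and 2.07-fold above the LIFR KO array. At such signals the ratio depends on the background correction. Normexp on all spots turned the LIFR KO value to 1.18, while normexp fitted without the stray signal gave -0.36. The first of these settings moved the whole array: 22.7% of all genes compared were then at least 2-fold higher on LIFR KO. With the second the share was 0.781%.

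The 4 ID genes did not share an order of arrays. On the LIFR KO array Id1 and Id2 were at least 2-fold higher, Id3 lay near wildtype and Id4 below it. On the gp130 KO array Id1 was the member past 2-fold, while Id2, Id3 and Id4 had log2 ratios of -0.31, -0.23 and 0.28.

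The sequences before the starts of the ID genes and of Smad6 are shown because these genes are known SMAD targets and their ratios differed from one another. They are the 250 bases before the start, from RefSeq on GRCm38.p6. Of the 10 genes 6 matched the table by symbol: Id2, Id3, Id4 and Smad6, which are printed, and Bmp4 and Smad1, which were searched for the same elements and are not printed. Id1, Hey1, Smad7 and Bambi were not matched. Capitals mark the letters of 3 elements that SMAD proteins are known to bind, the palindrome GGCGCC, its variant GGAGCC, which reads GGCTCC on the other strand, and GTCTG, which reads CAGAC there, each searched on both strands; none of the marked matches overlap.
Id2, chr12:25096093-25096342, minus strand: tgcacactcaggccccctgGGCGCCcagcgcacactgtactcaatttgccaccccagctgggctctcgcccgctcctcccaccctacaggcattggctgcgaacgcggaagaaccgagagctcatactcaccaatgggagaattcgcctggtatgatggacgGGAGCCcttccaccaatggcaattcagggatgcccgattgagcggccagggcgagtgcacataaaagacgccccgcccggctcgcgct
Id3, chr4:136143572-136143821, plus strand: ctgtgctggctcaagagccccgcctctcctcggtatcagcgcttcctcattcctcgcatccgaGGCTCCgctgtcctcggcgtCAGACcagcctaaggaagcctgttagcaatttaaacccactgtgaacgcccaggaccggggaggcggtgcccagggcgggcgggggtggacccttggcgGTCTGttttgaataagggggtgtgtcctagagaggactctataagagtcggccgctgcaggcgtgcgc
Id4, chr13:48260866-48261115, plus strand: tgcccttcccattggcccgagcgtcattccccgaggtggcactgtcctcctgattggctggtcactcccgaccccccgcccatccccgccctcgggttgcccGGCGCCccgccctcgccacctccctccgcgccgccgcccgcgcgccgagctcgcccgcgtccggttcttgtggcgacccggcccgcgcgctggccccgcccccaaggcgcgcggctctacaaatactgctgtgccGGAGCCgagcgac
Smad6, chr9:64022060-64022309, minus strand: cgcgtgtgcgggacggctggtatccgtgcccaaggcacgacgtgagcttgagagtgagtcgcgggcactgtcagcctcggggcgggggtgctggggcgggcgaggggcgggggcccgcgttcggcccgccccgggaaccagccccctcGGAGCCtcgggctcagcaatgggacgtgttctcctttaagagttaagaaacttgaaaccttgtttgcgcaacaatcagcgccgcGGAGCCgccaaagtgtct

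The Id2 sequence held 1 GGCGCC, its first base 231 bases before the start, and 1 GGAGCC at 88 bases. That of Id4 held the same pair, at 148 and 13 bases. Id3 held none of GGCGCC, 1 GGCTCC at 187 bases, 1 CAGAC at 167 and 1 GTCTG at 68. Smad6 held 2 copies of GGAGCC, at 102 and 18 bases. Bmp4 held 1 GGCTCC and Smad1 none of the 3. Of all 32851 promoter windows of this length, 9.59% held GGCGCC, 25.97% GGAGCC and 42.2% GTCTG on either strand, and 60.9% held at least 1 of the 3, against 5 of these 6. The members' windows were also richer in G and C, at 62.8% to 75.6% against a median of 52.4%. The STAT element TTCNNNGAA, present in 7.02% of windows, was in none of the 6, and the E-box CANNTG, in 66.2% of windows, was in that of Id2 once and of Bmp4 3 times. Matches are letters in a window and not shown to be bound, and the elements that are known to drive the ID genes can lie farther away.

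**Figure D2:**
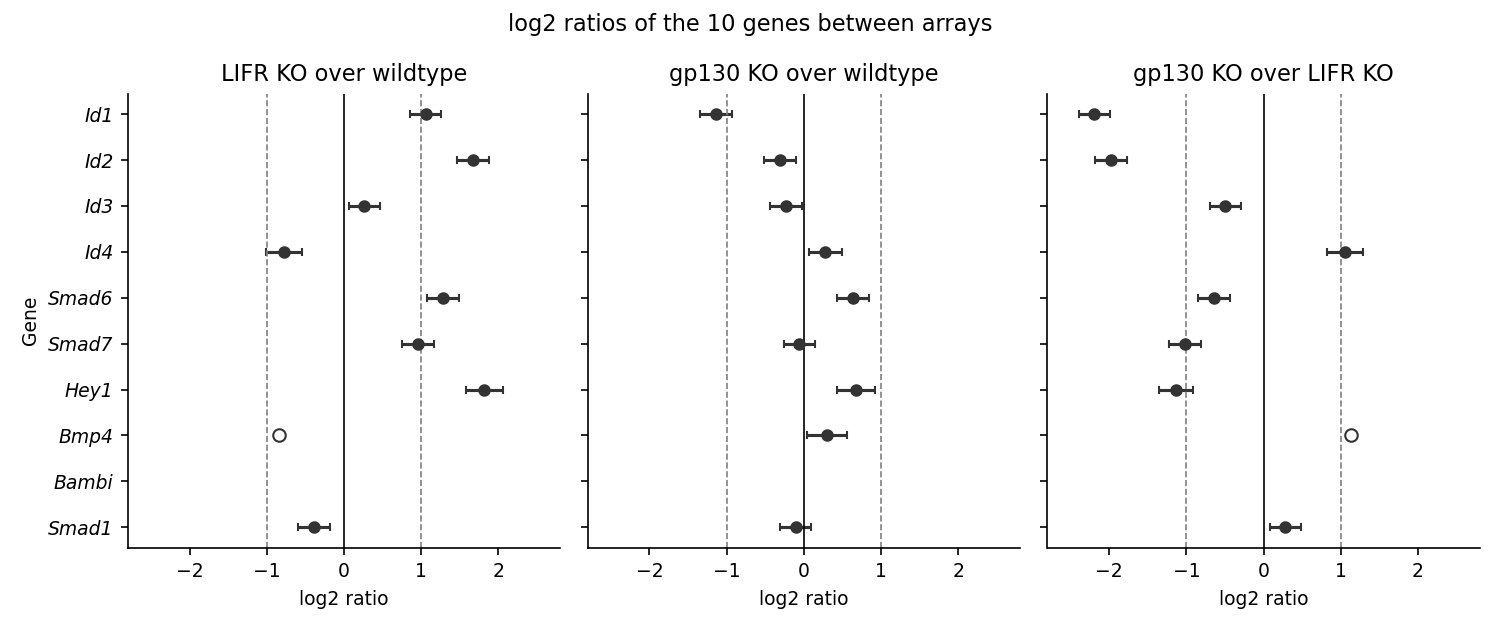
log2 ratios of the 10 genes between pairs of arrays; points are single ratios, bars the scanner error of the ratio, open points bounds, and dashed lines mark 2-fold. Id1 lies beyond the dashed line on the right for LIFR KO over wildtype and on the left for gp130 KO over wildtype, at 1.06 and -1.14.

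The feedback inhibitor genes Smad6 and Smad7 were higher on the LIFR KO array too. Smad6, whose product blocks signalling at BMP receptors and SMAD1, had signals of 102 ± 10.4 on the wildtype, 280.5 ± 28.3 on the LIFR KO and 156 ± 15.7 on the gp130 KO array (probe A_55_P2129658). Both knockouts lay above wildtype, the LIFR KO array 2.43-fold at a log2 ratio of 1.28 with an error of 0.21, and the gp130 KO array 1.56-fold at 0.64. The LIFR KO value lay from 1.02 to 1.45 under the alternatives, some of which cannot change it.

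Smad7, the inhibitor that acts on both BMP and TGF-beta receptors, had signals of 3012 ± 301, 6601 ± 660 and 2838 ± 284 (probe A_51_P403636). Wildtype and gp130 KO were level within the scanner error, at a log2 ratio of -0.06 with an error of 0.20, and the LIFR KO array stood apart at 0.96 over wildtype. That is 1.94-fold, the value just outside the 2-fold line, as Id1 at 2.08-fold is the value just inside it, and the same error of 0.20 covers both sides of the line. Against the LIFR KO array the gp130 KO array was 2.02-fold lower, a log2 ratio of -1.02 that was -0.57 with normexp on all spots.

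Bambi, a decoy receptor without a kinase domain, was not well above background on any array, with signals of 2.40, 3.74 and 2.15, and gave no ratio. The other inhibitors of SMAD signalling on the list were within 2-fold, Pmepa1 barely. Pmepa1, whose membrane protein binds SMAD2 and SMAD3, had 1215, 2704 and 1962, or log2 ratios of 0.98 on the LIFR KO and 0.72 on the gp130 KO array. Tob1, an antiproliferative protein that binds receptor SMADs, had 366, 687 and 416, at 0.73 and 0.21. The ubiquitin ligase gene Smurf2 had -0.26 and -0.31 and the SMAD co-repressor gene Skil 0.34 and -0.12. Without Smad6 and Smad7, none of 6 genes compared was 2-fold higher or lower on either knockout array, again near the shares over all genes.

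Hey1, a basic helix-loop-helix repressor known as a target of both Notch and BMP signalling, had the largest LIFR KO ratio of the 10. Its probe (A_51_P258409) was dim on wildtype, at 30.6 ± 3.89, and reached 122 ± 12.8 on the LIFR KO and 48.1 ± 5.27 on the gp130 KO array. The LIFR KO array was highest and wildtype lowest, 3.52-fold apart at a log2 ratio of 1.82 with an error of 0.24, and the gp130 KO array lay between them at 0.68 over wildtype. Among all genes compared, Hey1 ranked 134 from the highest on the LIFR KO array. With normexp fitted without the stray signal the LIFR KO ratio was 0.86. It lay between 1.79 and 1.99 in the other 10 alternatives, some of which cannot change it. Both normexp settings add an offset of 50 to every spot, more than the wildtype signal of this probe. An added constant by itself narrows the ratios of dim probes. The gp130 KO array was 2.20-fold below LIFR KO, a log2 ratio of -1.14 that was -0.58 with normexp fitted without the stray signal.

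The other Notch genes listed were counted too. Without Hey1, none of 14 Notch genes compared was at least 2-fold higher on the LIFR KO array and 1 was lower, the related gene Heyl, at 29.7 on wildtype and not well above background on LIFR KO, at least 2.01-fold lower. Heyl was also lower on the gp130 KO array, at 11.7 and 2.49-fold below wildtype. It was the 1 of 14 past 2-fold there, and none was higher. Over all genes the shares higher and lower were 2.87% and 1.62% on LIFR KO and 1.61% and 0.785% on gp130 KO. The counts rest on 1 dim gene, so nothing is read from the difference. Hes1, the best known Notch target, had log2 ratios of 0.37 and -0.07, and the feedback gene Nrarp -0.05 and -0.44.

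**Figure D3:**
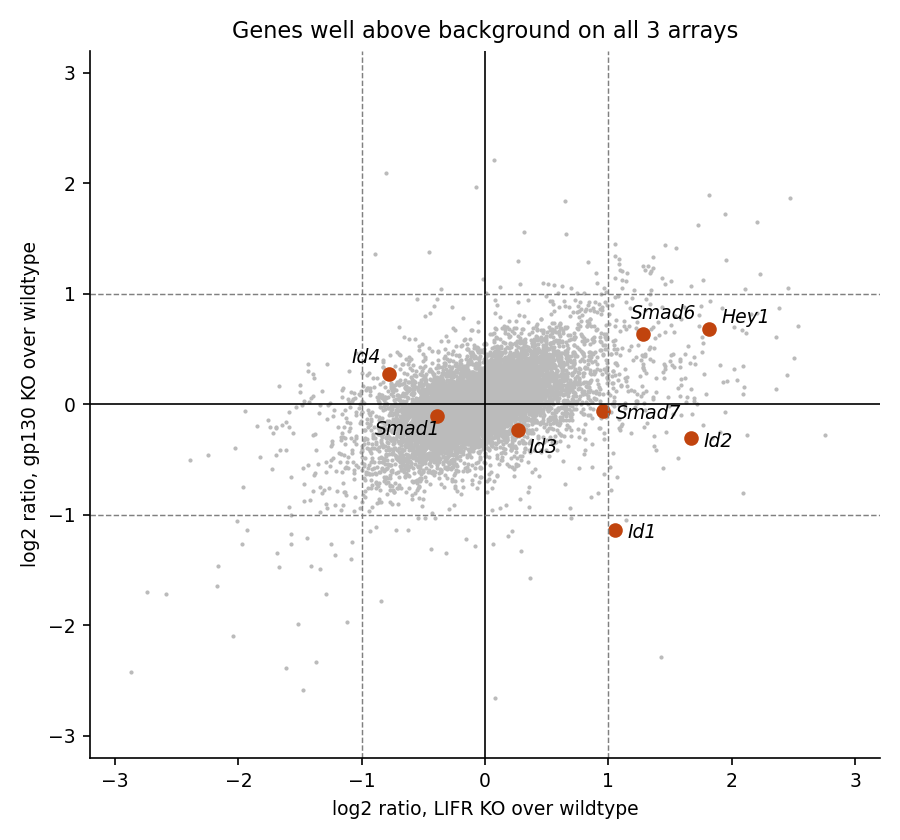
log2 ratio over wildtype of each gene well above background on all 3 arrays, LIFR KO on the horizontal and gp130 KO on the vertical axis; dashed lines mark 2-fold, orange points are the 8 genes so detected, grey points all others, and 11 of 13118 genes lie outside the axes. Id1, chosen for this pattern, is in the lower right corner, where 3 genes lie, and the ratios share the wildtype array.

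The genes with the array pattern of Id1 were listed. Id1 was chosen for this pattern, so nothing is read from how rare it is. Of 13118 genes well above background on all 3 arrays, 3 (0.0229%) were past 2-fold upwards on LIFR KO and past 2-fold downwards on gp130 KO, Id1, Nol4l and Tenm1, the gene of a cell surface teneurin, and none was the other way round. With the normexp settings Id1 itself was under 2-fold on LIFR KO, at log2 ratios of 0.52 and 0.98. By the distance between the pairs of log2 ratios over wildtype, the 5 genes nearest to Id1 among 12451 candidates were Nol4l at 0.12, the kinase gene Plk3 at 0.36, Actl11 at 0.36, the bacterial sensor gene Nod2 at 0.36 and Cish, a feedback inhibitor of cytokine receptors, at 0.38. Plk3 had signals of 853, 1747 and 469 on the wildtype, LIFR KO and gp130 KO arrays, and Cish 227, 416 and 110. Others were dim, with Nol4l at 53.0, 132 and 25.1, Tenm1 at 67.6, 205 and 13.6 and Actl11 at 23.0, 52.5 and 13.2. Nearest to Id2 were the odorant receptor gene Olfr1043, Frmd4b and the DNA-binding factor gene Arid3a, at distances of 0.16, 0.22 and 0.24. Nearest to Hey1 were the kinase gene Pim1, the zinc finger gene Casz1 and the complement receptor gene Cr2, at 0.09, 0.09 and 0.14, with Pim1 at 43.3, 162 and 69.2. Frmd4b and Cr2 were dim too, at 13.1, 44.5 and 12.0 and at 20.8, 79.8 and 29.9. The distance measure rests on 3 arrays and says nothing of shared function.

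The SMAD transducers had small ratios. Smad1, the receptor-activated SMAD of the pathway, had signals of 495 ± 49.6 on the wildtype, 427 ± 42.8 on the LIFR KO and 451 ± 45.1 on the gp130 KO array with its brighter probe (A_52_P65108), and 246 ± 24.7, 217 ± 22.1 and 205 ± 20.6 with the other. The log2 ratios over wildtype were -0.39 and -0.11 with the first and -0.36 and -0.24 with the second, with errors of 0.20 and 0.21. Both probes put the knockouts below wildtype, by less than 2 times the scanner error. The other transducers had log2 ratios of 0.08 and 0.03 for Smad4 and 0.05 and 0.22 for Smad5, on the LIFR KO and gp130 KO arrays, and Smad9 was not well above background on any array.

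Bmp4, the ligand best known for inducing ID genes in embryonic stem cells, was near the limit of detection. Its brighter probe (A_55_P2154387) had 26.4 ± 3.63 on the wildtype and 31.9 ± 3.88 on the gp130 KO array, and 16.7 ± 4.18 on the LIFR KO array, where it was not well above background. Taken at that dim reading, the LIFR KO array was 1.79-fold below wildtype and 2.20-fold below gp130 KO. The scanner errors of these log2 ratios were 0.41 and 0.40, so neither is a firm limit. The gp130 KO array was at 0.30 over wildtype with an error of 0.26. The other Bmp4 probe was not well above background on any array. Under the alternatives the LIFR KO ratio lay between -0.86 and 0.00.

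No other ligand and no receptor of the pathway was past 2-fold. The ligand gene Bmp8b, at 27.7 on wildtype and 18.7 on gp130 KO, was not well above background on LIFR KO. Taken at its dim reading it was 1.86-fold lower there, which is not a firm limit. Bmp7 was the brightest ligand probe, at 1219, 1413 and 1219 and log2 ratios of 0.04 and 0.03, and Bmp8a had 0.18 and 0.05. Of 11 ligand genes 5 were detected nowhere, Bmp2 among them. None of 10 receptor and co-receptor genes compared was past 2-fold in either knockout, a count near the shares over all genes; the type I receptor gene Bmpr1a had 0.08 and 0.07, the type II receptor gene Bmpr2 0.24 and -0.04, and Acvr2b -0.50 and 0.17. Ratios of this kind say nothing of receptor protein or of its activity.

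Among the secreted antagonists, follistatin was lower in both knockouts. Fst, whose product binds activins and some BMPs, had signals of 665, 308 and 199, 2.44-fold lower on the LIFR KO and 3.28-fold lower on the gp130 KO array. Nog, the gene of the BMP antagonist noggin, had 84.5, 153 and 43.3, or log2 ratios of 0.68 and -0.94, the same order of arrays as Id1. It read 1.91-fold lower on the gp130 KO array than on wildtype. Its spot was flagged for stray signal, a flag set over the arrays together, so these values are not to be relied on. Twsg1 and Nbl1 had -0.11 and -0.02 on the LIFR KO array and 0.06 and -0.13 on the gp130 KO array.

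Of the other BMP target genes listed, 1 was high with the ID genes. Dlx2, a homeobox gene, was well above background on the LIFR KO array alone, at 37.5, and was at least 4.79-fold higher than on wildtype, or at least 3.17-fold with the lowest single spot as the floor. Msx1 and Msx2, homeobox genes commonly used as BMP targets, went the other way, with log2 ratios of -0.56 and -0.55 on the LIFR KO and -0.23 and -0.30 on the gp130 KO array. Gata3 had 0.10 and 0.51, with a spot in stray signal, and Dlx3 -0.28 and -0.13. Over 6 pathway lists with the 10 genes left out, 1 of 41 genes compared was at least 2-fold higher and 1 lower on the LIFR KO array. That is 2.44% each, beside 2.87% and 1.62% over all genes. On the gp130 KO array none was higher and 1 lower, beside 1.61% and 0.785% over all genes. The higher count and both lower counts are 1 gene each, so nothing is read from the differences. The medians were -0.09 and -0.01.

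**Figure D4:**
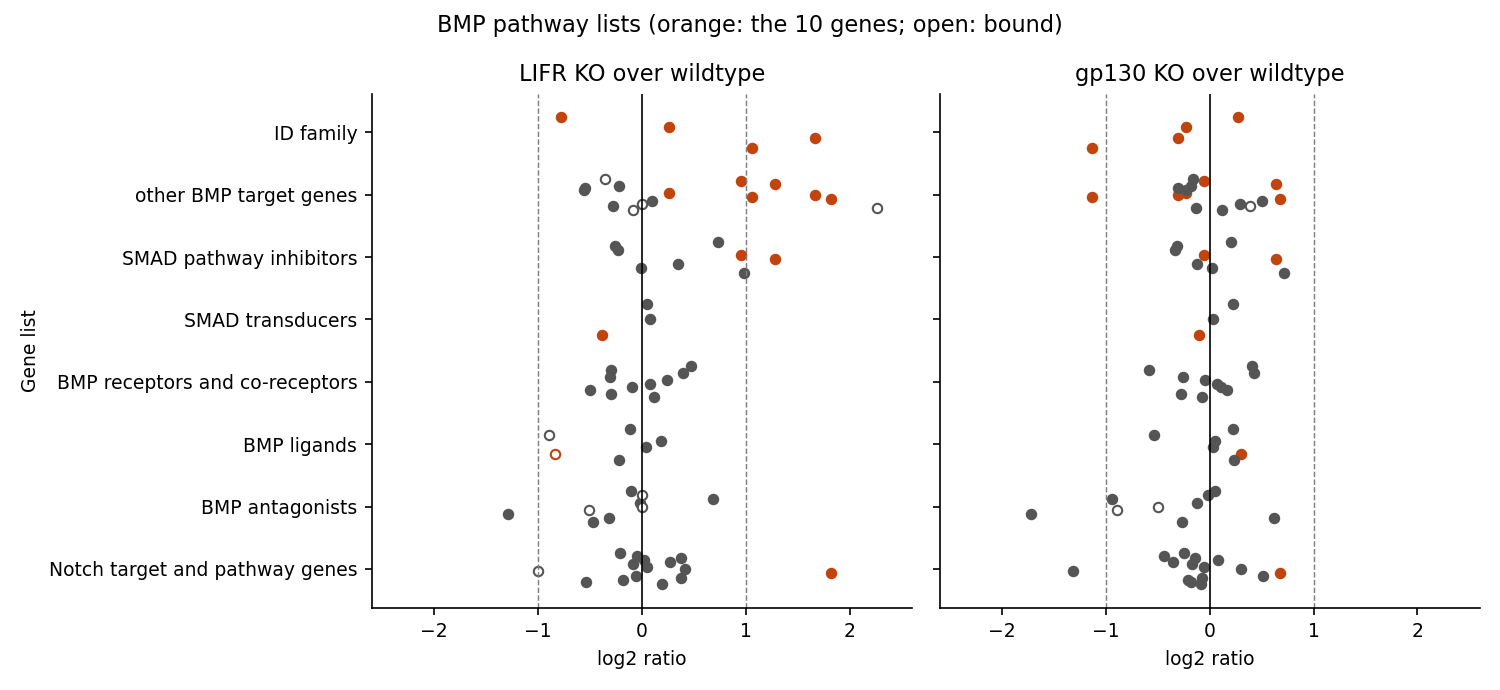
log2 ratios over wildtype of the genes compared in each list, LIFR KO on the left and gp130 KO on the right; each point is 1 gene, orange points are among the 10 genes, open points are bounds (those with no excess over the floor are drawn at 0) and dashed lines mark 2-fold. Orange points at 1.06 to 1.82 stand right of the line on the LIFR KO side, while receptors and transducers lie between the lines on both sides.

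The binding partners of ID proteins include the E proteins. Their genes Tcf3, Tcf4 and Tcf12 were bright, with Tcf3 at 4966, 5910 and 5534, and had log2 ratios of 0.08, 0.13 and -0.18 on the LIFR KO and 0.18, 0.07 and -0.08 on the gp130 KO array. None of 8 partner genes compared was past 2-fold in either knockout, where 2.87% higher and 1.62% lower on LIFR KO and 1.61% and 0.785% on gp130 KO is the share over all genes, so the count is near the background.

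**Figure D5:**
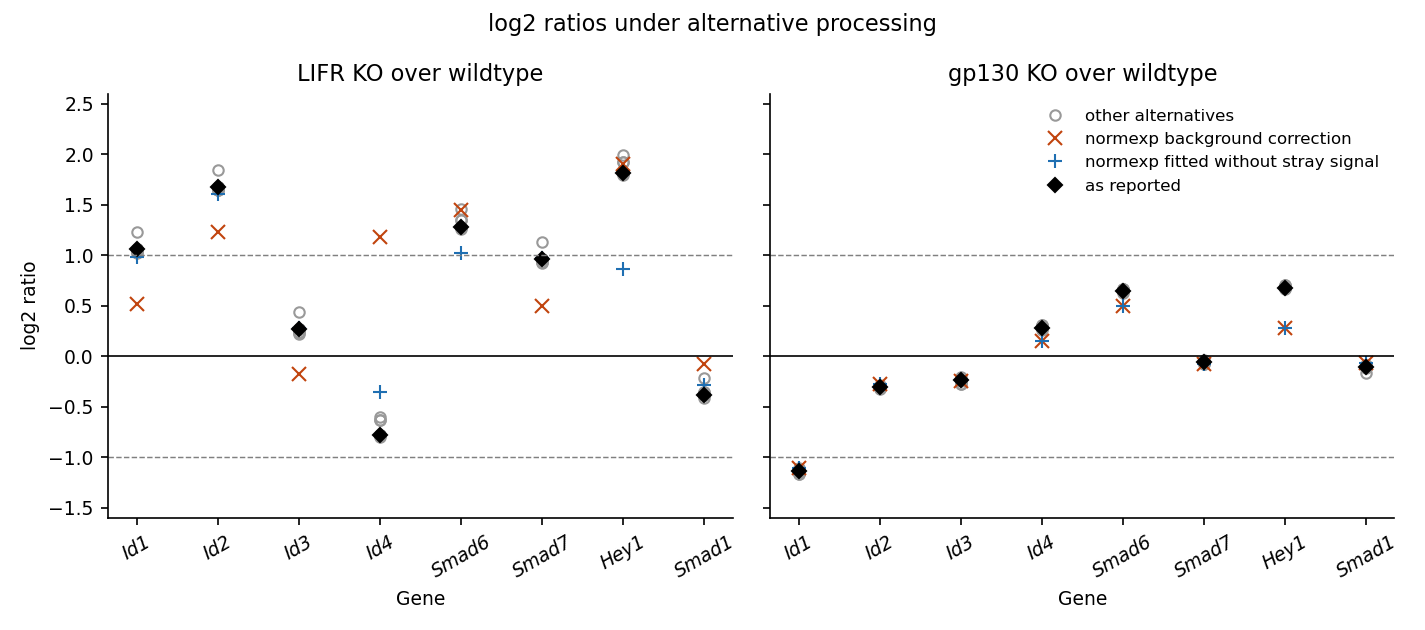
log2 ratios over wildtype of the 8 genes well above background on all 3 arrays under each way of processing; diamonds are the values reported, crosses and plus signs the 2 normexp settings, circles the other 9 alternatives, and dashed lines mark 2-fold. Id2 and Smad6 keep above the line on the LIFR KO array, Id4 spreads from -0.80 to 1.18, and Id1 on the gp130 KO array stays between -1.17 and -1.11. Some circles lie on the diamond because that alternative cannot change the gene.

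The position of the 2-fold line matters for the counts. With the array median in place of the 75th percentile as the centre, the median LIFR KO log2 ratio of all genes moved from -0.03 to 0.11, Smad7 reached 1.13, and the genes past 2-fold on that array split into 562 higher and 147 lower, against 417 and 236. On the gp130 KO array the split was 240 and 117, or 161 and 129 with the authors' series matrix values. Repeated spots of a probe scattered little, and the scatter gives a 95% half-width of 0.14 to 0.15 on the log2 scale for a ratio at the median probe. Among probes under a signal of 200, where Id4, Hey1, Bmp4 and on 2 arrays Smad6 lie, a probe at the upper decile of scatter gives 0.73 to 0.78. Each of the 12 probes is spotted once, so its own scatter is not measured, and these widths leave out the scatter between cultures.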

How the data were processed

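RNA of 3 samples, wildtype, LIFR KO and gp130 KO, was measured on 1 array each, grouped by the genotype in the labels. Per the file headers, the scans of the Agilent arrays (design 026655, probe positions on mm9) were read by Feature Extraction 11.0.1.1; the submitters' processing notes name version 9.1. The headers give all 3 arrays 1 scan identifier, so no batch could be set apart. The deposited intensity is the software's processed signal, background-subtracted and not normalised between arrays; the deposited median intensities of spot and local background served normexp (limma 3.58.1, offset 50). The deposited flags of 0 or 1 are another kind of value, per the file headers. The authors' log2 series matrix values, whose scale was found by comparison with log2 processed signal (r from 0.995 to 0.999, each column median 5.38), were used as an alternative. Their normalisation is not given in the sources used here.

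From the 43020 non-control spots, outlier spots were left out, repeated spots averaged on the log2 scale and the log2 75th percentile of each array's spots subtracted (Python 3.11.15). RefSeq accessions named 27191 of 39384 probes (69.0%), and a gene was read from its brightest probe. A gene was compared if either array had it well above background. If one did not, the ratio is a bound against the higher of the dim value and the lowest probe mean well above background, 6.94, 16.7 and 9.66 on the 3 arrays; where it did not exceed that floor it was set to 0. Stray signal means a local background over 2 times the array's median. The ratio calculation was tested on simulated data. No test was run, as each group has 1 array. The number of arrays limits the precision. The genes, lists and alternatives were chosen with earlier results of these data known. The text names all 10 genes, list members past 2-fold and some of the brightest. It also names the 5 or 3 genes nearest to Id1, Id2 and Hey1. Further list genes, Tenm1 and the promoter elements reported were chosen after values were seen. Part of the TGF-beta target list is not reported here.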

Additional observations from a re-analysis of the deposited data

Results flagged for a closer look

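Id1 lay on opposite sides of wildtype in the 2 knockouts, with log2 ratios of 1.06 on the LIFR KO and -1.14 on the gp130 KO array. It stands here because the single array of each knockout lay on the other side of wildtype. The difference between the knockouts was not tested, since each is 1 array, and the gene was chosen for this pattern.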

How the results depend on the processing

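The 10 genes' ratios were recomputed under 11 alternatives. Of 66 counts of genes past 2-fold, 59 were within 1.5 times the reported one. With normexp fitted without the stray signal, 2 genes in place of 4 were at least 2-fold higher on the LIFR KO array, Id2 and Smad6. The 2 genes at least 2-fold higher on gp130 KO than on LIFR KO, Id4 and Bmp4, became 0 with normexp, with normexp fitted without the stray signal, with the array median, with quantile normalisation and with the authors' series matrix values, and 1 when both arrays had to be well above background. Of the 4 genes lower in that comparison, Smad7 was lost with normexp on all spots (-0.57), where Id4 took its place, and Hey1 with normexp fitted without the stray signal (-0.58). One ratio past 2-fold reversed, that of Id4 for gp130 KO over LIFR KO, at -1.03 with normexp on all spots. Over all genes, the LIFR KO array had 113 to 3301 higher and 65 to 1018 lower by at least 2-fold (417 and 236 as reported), the gp130 KO array 9 to 653 and 33 to 593 (240 and 117), and gp130 KO over LIFR KO 37 to 969 and 77 to 3245 (191 and 303). The 3301 came from normexp on all spots, with 94 lower, and the 113 from normexp fitted without the stray signal, with 65 lower. The 3245 also came from normexp on all spots. Ratios involving the LIFR KO array under that setting therefore moved with the array as a whole. The cause of these changes was not tested. Among the single ratios, 50 moved by more than the scatter of repeated spots and 244 did not. Many of the 244 could not move. Averaging probes, changing the detection filter or floor, or leaving out stray spots cannot alter a gene with 1 probe well above background on all arrays and outside stray signal. The unchanged ratios and counts are therefore no measure of stability. Leaving out a replicate was not possible with 1 array per group. No paired analysis was possible because each group has 1 array. Signal over background limits Id4, Hey1 and Bmp4, and Bambi could not be measured.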

Other observations

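Among the TGF-beta target genes listed, Snai1, the gene of a repressor of E-cadherin, had signals of 661 on wildtype and 3186 on LIFR KO, 4.27-fold higher. The collagen gene Col1a1, also on the fibroblast list, had 70.4 and 257, 3.23-fold higher. On the gp130 KO array these had log2 ratios of 0.09 and 0.43, and Ccn1, a secreted matrix protein gene, was 2.48-fold lower. The ligands and receptors of TGF-beta and activin had no gene past 2-fold in either knockout, of 11 compared on the LIFR KO and 12 on the gp130 KO array. Over all genes 2.87% were higher and 1.62% lower on LIFR KO, and 1.61% and 0.785% on gp130 KO, so the counts are near the background.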
